A study of Arabidopsis thaliana with 30 samples.

Results

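The response of Col-0, the wild type of Arabidopsis thaliana, to Zeocin was read from 7 of the 30 RNA sequencing libraries of the series: 3 of Zeocin-treated and 4 of mock-treated whole seedlings. The members are the libraries titled as Zeocin and mock Col-0, so no measured value chose them. Seedlings were 14 days old, grown on agar plates in short days, and spent 3 h in liquid MS medium with 80 µg/ml Zeocin or without it. The other 23 libraries come from a mutant named Δlinda under the same 2 conditions and from both genotypes after UV-C or in normal light. They shared 1 fit with the 7 and are used here only to show where the Zeocin response of Col-0 differs.

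Zeocin is a bleomycin-type drug that cuts both strands of DNA. In plants such breaks activate the kinase ATM, which phosphorylates SOG1, a NAC transcription factor that takes the place p53 has in animals. SOG1 switches on repair genes and inhibitors of cyclin-dependent kinases (CDKs), while repressor-type MYB3R factors hold back mitotic genes, so that dividing cells stop, and stem cells of the root may die. Most cells of a seedling of this age have left the division cycle, so whole-seedling RNA reads genes of dividing cells from a part of the cells only.

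Several points on the libraries bear on the results. The genotype tag of mock replicate 1 reads delta_linda although title and column say Col-0, and the title was followed. The treatment protocol puts the word mock beside the Zeocin medium, and here too the titles were followed. The design text gives 4 samples in each group, and 3 Zeocin Col-0 libraries are used here. Restored totals were 14707587, 14949280 and 14783389 counts in Zeocin libraries and 13885841, 14425076, 14519606 and 14362741 in mock libraries. Marker genes of seedling tissues were all above 0 in each of the 7 libraries. Their summed levels, in CPM (read counts relative to library size, here scaled by TMM), were 36150 to 45880 in Zeocin and 36720 to 46500 in mock libraries for 10 leaf genes, 156.6 to 194.4 and 194.4 to 250.3 for 14 root genes, 376.2 to 450.1 and 370.5 to 419.2 for 11 vascular genes, and 102.6 to 121.6 and 115.9 to 129.0 for 10 guard cell genes. Only SEOR1 of the vascular list, a sieve element protein gene, was called by edgeR among them (log2 fold 0.89 ± 0.13, SE, raised). At an unadjusted p under 0.05, 0 leaf, 2 root and 2 guard cell markers were lower, and DESeq2 called 1 root marker. In whole seedlings fewer cells of a type and less RNA per cell cannot be told apart.

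Of 21444 genes tested, 872 (4.07%) were raised and 252 (1.18%) lowered after Zeocin at an adjusted p under 0.05, 1124 in all (5.24%; edgeR's quasi-likelihood test with Benjamini-Hochberg adjustment, as for every adjusted p here). With the 7 libraries fitted alone 514 were raised and 89 lowered, and DESeq2 on all 30 lowered 398. Rises were larger than falls. Among raised genes the median log2 fold was 1.15, 499 exceeded 1, 215 exceeded 2 and 68 exceeded 4, whereas among lowered genes the median was -0.81, 73 lay beyond -1 and 13 beyond -2. The median over all tested genes was -0.0026. Raised genes together held 41420 CPM in Zeocin libraries (mean) and 16200 CPM in mock libraries, and lowered genes 6227 CPM and 9890 CPM.

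Of the raised genes 793 had Zeocin libraries that were all above the mock libraries, as did 1743 of all tested genes (8.13%). For lowered genes the count was 206 below, against 1233 of all tested (5.75%). Zeocin replicate 1 was the weakest responder of the 3: it was the lowest Zeocin library in 626 of the 872 raised genes, replicate 2 in 80 and replicate 3 in 166. The median log2 of the raised genes over the mock mean was 0.858, 1.3 and 1.16 in replicates 1, 2 and 3, and that of the lowered genes -0.572, -0.745 and -1.03. The counts of calls move with single libraries: without Zeocin replicate 1, 2 or 3 there were 1038, 543 and 660 raised genes and 466, 140 and 83 lowered genes. Without mock replicates 1 and 3 there were 166 and 151 lowered genes. In every one of the 7 fits with a library left out 470 raised and 37 lowered genes were called.

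**Figure D1:**
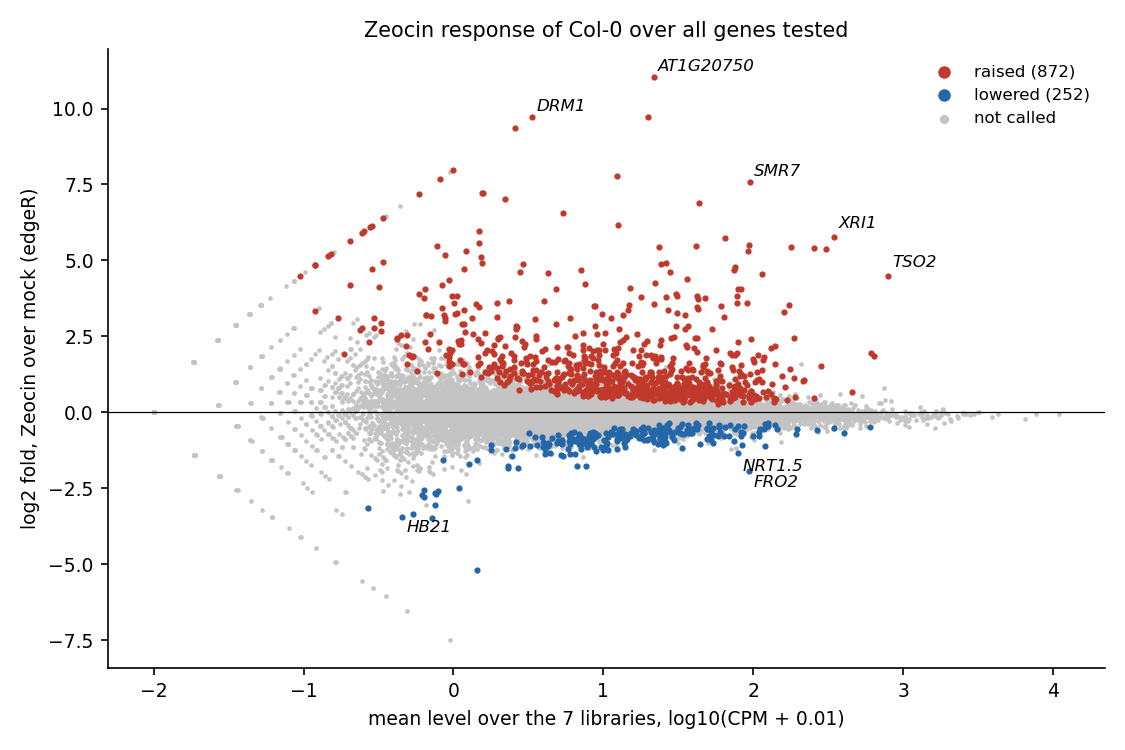
Log2 fold of Zeocin over mock in Col-0 (vertical axis) against the mean level over the 7 libraries as log10(CPM + 0.01) (horizontal axis), 1 point per tested gene, red raised (872), blue lowered (252), grey not called. Red points rise far above 0, and most blue points stay close to it.

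The largest rises came from genes that were silent or nearly so in mock seedlings. AT1G20750, a gene for a RAD3-like DNA helicase, had 47.1, 46.4 and 58.6 CPM in Zeocin libraries against 0, 0, 0 and 0.0599 CPM in mock libraries, a single count in all. The ratio of summed counts was 3360 (exact 95% counting interval 603 to 133000). AT5G07165, which encodes an uncharacterized protein, had 37.4, 49.4 and 51.5 CPM after Zeocin against 0 to 0.125 CPM in mock (ratio 1020, interval 348 to 4940). Both genes were thus read in every Zeocin library and at most by a few counts in mock.

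DRM1 (AT5G15380), which encodes a de novo DNA methyltransferase, had 7.65, 7.64 and 7.96 CPM in Zeocin libraries and 0 in all 4 mock libraries. That is at least 42.8-fold higher against a floor of 3 counts per library (adjusted p = 1.1e-08). DRP4C (AT1G60500), a dynamin-related protein gene, had 4.3, 6.93 and 6.74 CPM and 0 in all mock libraries, at least 33.1-fold higher (adjusted p = 4.5e-09). Among the 872 raised genes 16 had 0 counts in all 4 mock libraries.

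SMR7 (AT3G27630), a SIAMESE-related inhibitor of CDKs, had 173, 248 and 239 CPM in Zeocin libraries against 0.438, 0.838, 1.77 and 1.5 CPM in mock libraries (log2 7.58 ± 0.38, adjusted p = 2.3e-14). AT4G22960, a gene of a FAM63A-like protein, had 73.3, 116 and 112 CPM after Zeocin and 0.564 to 1.02 CPM in mock (6.90 ± 0.29). AT4G25330, a SAWADEE protein gene, had 18.7, 31.7 and 35.6 CPM after Zeocin and, in mock, 0 in 3 libraries and 0.48 CPM in replicate 4 (7.79 ± 0.52). In each of these the 2 groups lay far apart and Zeocin replicate 1 was the lowest of the 3.

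XRI1 (AT5G48720), an X-ray-induced gene needed for meiosis, had a higher level than the genes named above. It stood at 634, 841 and 887 CPM after Zeocin and at 12.4, 13.3, 15.9 and 16.2 CPM in mock (5.77 ± 0.21, adjusted p = 1.8e-18). The RING finger gene AT5G60250 had 87.1, 202 and 151 CPM against 2.32 to 3.36 CPM (5.73 ± 0.30), and AT1G68200, a gene of a CCCH zinc finger protein (CDM1), had 16.9, 29.3 and 39.8 CPM against 0.12 to 0.591 CPM (6.16 ± 0.39). AT4G05380, which encodes a P-loop ATPase-type protein, had 11.9, 11.8 and 13.5 CPM after Zeocin and 0 to 0.24 CPM in mock (6.58 ± 0.43). The groups overlap in none of the 15 largest rises, which the rule for naming them required.

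**Figure D2:**
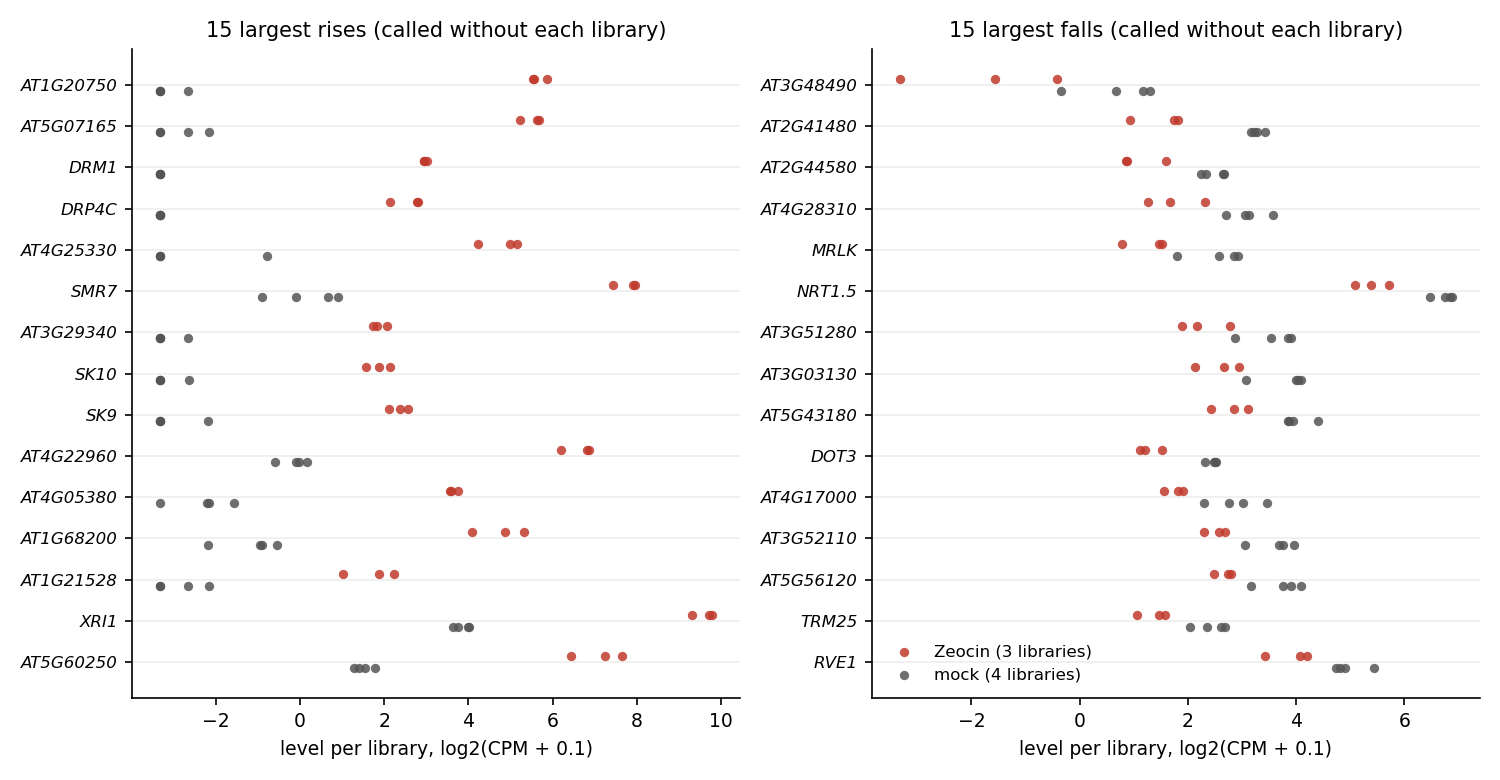
Level per library as log2(CPM + 0.1) of the 15 largest rises (left) and the 15 largest falls (right) among genes called with and without each of the 7 libraries, Zeocin libraries red (3 points per gene), mock libraries grey (4 points). The rises stand far to the right of mock, while the falls, with log2 folds of -2.48 to -1.07, lie closer to mock than the rises do.

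SK9 (AT3G21850) and SK10 (AT3G21860) code for SKP1-like proteins, adaptors of SCF ubiquitin ligases. SK9 had 4.24, 5.86 and 5.11 CPM in Zeocin libraries and 0 in 3 mock libraries with 0.12 CPM in the other (ratio 168, interval 46.0 to 1390). SK10 had 2.88, 4.32 and 3.6 CPM and 0 in 3 mock libraries with 0.0626 CPM in the other (ratio 239, interval 42.3 to 9480). Another gene beside them, SK7 (AT3G21840), was also raised, with 0.589, 0.651 and 0.639 CPM after Zeocin and 0 in all mock libraries, and was picked out after its values were seen. These near-identical neighbours may share reads, so their single values are uncertain. Over the genome 85 of 21179 neighbouring tested pairs were both raised, which took in 159 genes, and 3 were both lowered. Of the 85 pairs 11 had overlapping gene models, where reads cannot be assigned with certainty.

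Sequence before the gene start gives a view of the response that the counts did not use. SOG1 binds a palindrome of CTT and AAG with 7 bases of any kind between them, and Zeocin-responsive SMR genes are known targets. Of raised genes with a log2 fold over 2, 24.4% (52 of 213 with sequence) held this motif on either strand in the 250 bases before the annotated start. The share was 10.1% (66 of 656) for raised genes up to 2, 6.75% (17 of 252) for lowered genes and 9.13% (1935 of 21183) over all tested genes. These shares are descriptions with no test. The upstream sequences of 4 strongly raised genes with the motif are shown from RefSeq TAIR10.1, 250 bases before the start on the strand of the gene, 5′ to 3′, with the match in capitals, to show its distance from the start. Most of the 15 largest rises, XRI1, DRM1 and DRP4C among them, have no match in this window, and AT1G21528, not shown, has 2. AT1G20750 (chromosome 1, minus strand) has it 123 bases before the start, SMR7 (chromosome 3, minus strand) 31, AT4G05380 (chromosome 4, plus strand) 93 and AT1G68200 (chromosome 1, plus strand) 191.
AT1G20750: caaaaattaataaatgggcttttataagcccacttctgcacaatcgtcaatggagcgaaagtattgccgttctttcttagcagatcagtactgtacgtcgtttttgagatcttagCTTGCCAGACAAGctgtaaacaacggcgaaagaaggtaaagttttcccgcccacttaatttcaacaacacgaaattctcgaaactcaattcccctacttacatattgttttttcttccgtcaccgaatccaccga
SMR7: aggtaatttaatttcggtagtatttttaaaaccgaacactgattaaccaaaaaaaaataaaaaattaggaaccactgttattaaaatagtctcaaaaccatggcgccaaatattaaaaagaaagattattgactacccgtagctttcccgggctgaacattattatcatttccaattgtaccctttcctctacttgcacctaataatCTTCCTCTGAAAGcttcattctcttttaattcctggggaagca
AT4G05380: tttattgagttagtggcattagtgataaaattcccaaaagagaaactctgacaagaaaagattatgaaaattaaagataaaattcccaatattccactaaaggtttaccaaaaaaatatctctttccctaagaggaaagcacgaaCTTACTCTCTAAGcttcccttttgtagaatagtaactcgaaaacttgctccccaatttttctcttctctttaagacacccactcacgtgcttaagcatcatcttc
AT1G68200: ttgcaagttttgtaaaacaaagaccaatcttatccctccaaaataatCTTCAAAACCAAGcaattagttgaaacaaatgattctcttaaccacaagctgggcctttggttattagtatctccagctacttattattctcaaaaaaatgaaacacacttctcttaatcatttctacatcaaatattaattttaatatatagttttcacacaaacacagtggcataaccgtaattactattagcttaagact

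The W-box (TTGACC or TTGACT, on either strand), the element WRKY factors bind, was found before 32.4% of genes with a log2 fold over 2, 37.7% of the smaller rises, 21.0% of lowered genes and 28.5% of all tested genes. The E2F core (TTCCCGC or TTGGCGC, either strand), the site of S-phase regulators, stood before 3.76%, 1.07%, 4.76% and 1.93% of the same sets in the same order. The core of the mitosis-specific activator, AACGG on either strand, to which MYB3R factors bind, was found before 26.8%, 20.3%, 25.8% and 21.7%. Each motif was searched on its own, so matches of different motifs may overlap.

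**Figure D3:**
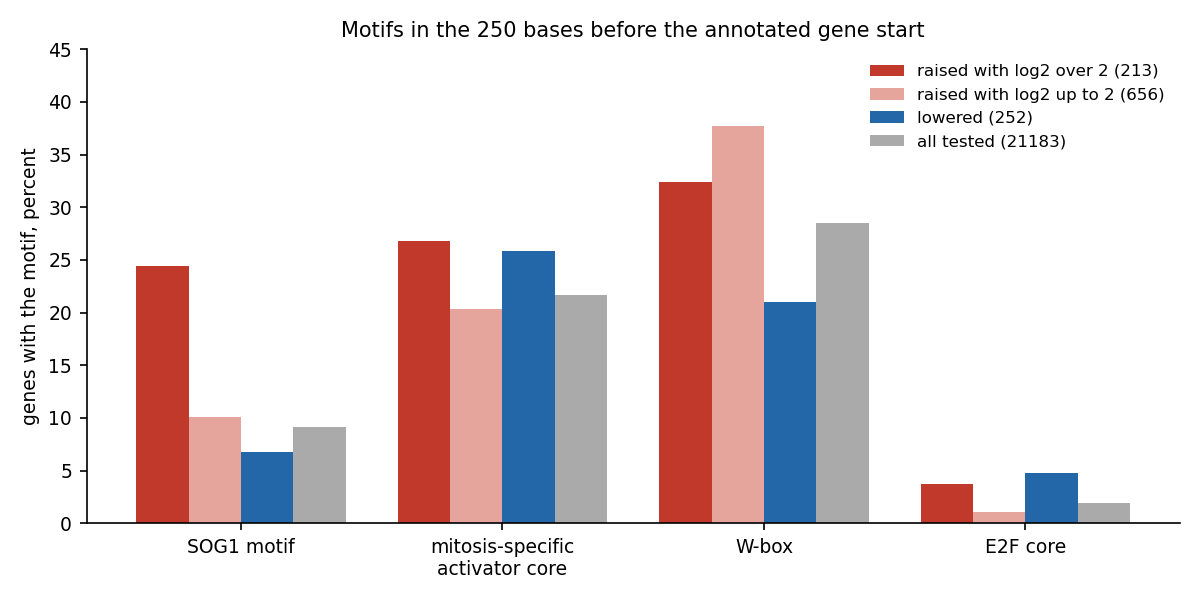
Percent of genes with each motif on either strand in the 250 bases before the annotated start (vertical axis), for raised genes with a log2 fold over 2 (213 genes with sequence), raised genes up to 2 (656), lowered genes (252) and all tested genes (21183). The SOG1 motif stands at 24.4% in the first set and between 6.75% and 10.1% in the others, and the W-box is at 37.7% in the smaller rises.

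CDK inhibitors bring the cell cycle to a stop. Of 10 tested 3 rose and 0 fell (median log2 0.22; 4.07% raised over all genes): SMR7, above, SMR4 (AT5G02220) and KRP6 (AT3G19150). SMR4 had 11.1, 19.8 and 16 CPM in Zeocin libraries against 0.501, 0.0598, 0.828 and 1.02 CPM in mock libraries (4.67 ± 0.48, adjusted p = 2.7e-08). KRP6, a Kip-type inhibitor, had 42.1, 56.2 and 69.1 CPM after Zeocin and 8.68 to 10.9 CPM in mock (2.49 ± 0.22, adjusted p = 7e-10). The calls of these 3 genes held without each library. The gene SMR5 (AT1G07500) was left out for unclear decimals. SMR2, SMR3, SMR6, KRP4 and most other SMR names matched no gene, so most SIAMESE-related genes are not among those tested in the list.

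Cyclins and their kinases, 32 genes tested, had 6 falls and 2 rises, with a median of -0.33 (1.18% lowered and 4.07% raised over all genes). CYCB2;1 (AT2G17620), a mitotic cyclin, had 2, 0.651 and 1.05 CPM in Zeocin libraries against 3.88, 4.07, 3.31 and 2.16 CPM in mock libraries (-1.44 ± 0.39, adjusted p = 0.023). CYC1BAT (AT5G06150, cyclin B1;2) had 12.8, 7.94 and 5.58 CPM after Zeocin and 18.2, 17.7, 22.8 and 11.3 CPM in mock, and here mock replicate 4 overlapped with the Zeocin libraries (-1.0 ± 0.23, adjusted p = 0.0075). In the other direction CYCB1;1 (AT4G37490) stood at 72.6, 120 and 109 CPM against 6.65 to 8.02 CPM (3.78 ± 0.21, adjusted p = 1.2e-14), a call that held without each library. CYCB2;1 lost its call in 4 and CYC1BAT in 2 of the 7 fits without a library. The other rise, CYCA1;2, is described with the meiosis genes, and the count of 2 rises was 1 without Zeocin replicate 2 or 3 or mock replicate 2 or 3.

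Genes of kinesins and cytokinesis fell in 4 of 20 tested and rose in 0 (median -0.52; 1.18% lowered over all genes). SYP111 (AT1G08560), the syntaxin KNOLLE of the cell plate, had 18.8, 18.4 and 11.6 CPM in Zeocin libraries against 33.5, 36.7, 32.9 and 15.9 CPM in mock libraries (-0.87 ± 0.22, adjusted p = 0.013). HIK (AT1G18370), a kinesin of the phragmoplast, had 15.1, 11.4 and 9.35 CPM against 22, 25.2, 25.3 and 12.9 CPM (-0.84 ± 0.22, adjusted p = 0.02). SYP111 lost its call in 2 of the 7 fits and HIK in 4. Mock replicate 4 was the lowest mock library in 19 of the 20 kinesin and cytokinesis genes and in 27 of the 32 cyclins and kinases. It held 220.7 CPM over the 20 genes, below all Zeocin libraries (229.1 to 270.6 CPM) and the other mock libraries (341 to 383.6 CPM). The 6 and 4 falls became 9 and 9 without mock replicate 4, 4 and 2 without mock replicate 1, 3 and 0 without mock replicate 2, 2 and 1 without mock replicate 3, 0 and 1 without Zeocin replicate 2 and 1 and 0 without Zeocin replicate 3. At an unadjusted p under 0.05 there were 12 and 13 falls, and DESeq2 called 7 and 5. What sets mock replicate 4 apart was not tested.

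CYCB2;1 and CYC1BAT carry the activator core several times before the start, and their upstream sequence is shown for that reason, with the matches to AACGG and its complement CCGTT in capitals (RefSeq TAIR10.1, strand of the gene, 5′ to 3′). The core is not particular to lowered genes: it stood before 25.8% of these, 26.8% of raised genes with a log2 fold over 2 and 21.7% of all tested genes. CYCB2;1 (chromosome 2, plus strand) has 3 matches, 133 to 52 bases before the start, and CYC1BAT (chromosome 5, minus strand) has 4, 139 to 7 bases before it.
CYCB2;1: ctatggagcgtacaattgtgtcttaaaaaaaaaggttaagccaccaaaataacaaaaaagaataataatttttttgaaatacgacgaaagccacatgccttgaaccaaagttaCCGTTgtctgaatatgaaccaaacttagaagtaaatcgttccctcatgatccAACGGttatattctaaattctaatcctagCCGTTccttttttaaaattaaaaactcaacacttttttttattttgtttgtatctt
CYC1BAT: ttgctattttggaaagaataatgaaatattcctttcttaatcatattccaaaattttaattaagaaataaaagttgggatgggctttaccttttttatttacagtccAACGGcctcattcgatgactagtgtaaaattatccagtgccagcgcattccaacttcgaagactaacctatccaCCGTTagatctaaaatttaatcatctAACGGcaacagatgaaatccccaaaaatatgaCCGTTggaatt

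Among 21 genes of nucleotide metabolism, those of deoxynucleotide supply being only a part of them, 3 rose and 1 fell (median -0.06). These counts and those of histones stand against 4.07% raised and 1.18% lowered over all genes. TK1a (AT3G07800), a thymidine kinase of the salvage route, had 483, 811 and 775 CPM in Zeocin libraries against 14.2, 12.8, 18.2 and 21.6 CPM in mock libraries (5.37 ± 0.21, adjusted p = 8.5e-18). TSO2 (AT3G27060), the small subunit of ribonucleotide reductase, had 1410, 1960 and 1870 CPM against 59.3 to 110 CPM (4.48 ± 0.20). RNR1 (AT2G21790), of the same enzyme, had 340, 344 and 373 CPM against 59.5 to 68.8 CPM (2.45 ± 0.16). DUT1 (AT3G46940), which keeps uracil out of DNA, fell to 10.5, 6.34 and 7.15 CPM in Zeocin libraries, against 13.9 to 18.9 CPM in mock libraries (-0.96 ± 0.18, adjusted p = 0.00084). Among 21 histone genes 2 fell, HTB1 (-0.69 ± 0.16) and H2AXA (-0.35 ± 0.11), with 5 falls without Zeocin replicate 1, 3 without mock replicate 2 or 4, 1 without Zeocin replicate 2 or mock replicate 1 or 3, and 0 without Zeocin replicate 3. The lowered H2AXA encodes a variant histone that is phosphorylated beside breaks, and it lost its call in 6 of the 7 fits. Most names of histone H3 genes (HTR) matched no gene, so the list leaves most of them out. Outside the list HTR11 (AT5G65350, log2 1.57) and its neighbour AT5G65360 (1.33) were called raised. Both were picked out after their values were seen.

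Cohesin and condensin genes rose in 2 of 17: SYN2 (AT5G40840), a kleisin subunit of cohesin, and EMB2773 (AT5G15540), the cohesin loader SCC2. EMB2773 had 117, 127 and 144 CPM in Zeocin libraries and 34.1 to 36 CPM in mock libraries (1.87 ± 0.14, adjusted p = 1.7e-11). Meiosis genes rose in 3 of 20 (median 0.235), led by ATMND1 (AT4G29170), a partner of recombinases in strand exchange, at 40.2, 59.3 and 66.9 CPM against 3.48 to 4.97 CPM (3.78 ± 0.21). ASY3 (AT2G46980), a protein of the meiotic chromosome axis, had 18, 20.7 and 24.2 CPM against 6.11 to 11.4 CPM (1.34 ± 0.20), and the third, the A-type cyclin CYCA1;2 (AT1G77390), lost its call in 4 of the 7 fits without a library (largest adjusted p = 0.2). In the list of chromatin and DNA methylation 2 of 49 rose and 1 fell, shares near those over all genes (4.07% and 1.18%). AGO2 (AT1G31280), an ARGONAUTE linked to small RNAs from breaks, rose to 77.9, 154 and 159 CPM in Zeocin libraries, against 12.9 to 17 CPM in mock libraries (3.13 ± 0.19), and DRM1 is given above. ATXR6, which methylates histone H3, had -1.20 ± 0.34 (adjusted p = 0.034), with the call lost in 4 of the 7 fits.

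Of 41 proteasome genes tested, among them NAC053, a regulator of the subunit genes, 16 rose and 0 fell, and 25 were not called (4.07% raised over all genes). A positive log2 fold was found in 40 of the 41 (median 0.29, against -0.0026 over all genes). PAD2 (AT5G66140), an alpha subunit of the 20S core, had 124, 160 and 149 CPM in Zeocin libraries against 29.3, 25.4, 33.1 and 29.3 CPM in mock libraries (2.31 ± 0.17, adjusted p = 8.1e-12). Its copy PAD1 rose by 0.55 on the log2 scale, and since they are near-identical their split is uncertain. The gene model of PAD2 also overlaps that of its neighbour ATRAD17 (AT5G66130), a checkpoint gene, which had 67.9, 98.7 and 103 CPM in Zeocin libraries against 5.2 to 7.37 CPM in mock libraries (3.83 ± 0.21), so reads of the pair cannot be assigned with certainty and the value of PAD2 is uncertain for this reason too. NAC053 (AT3G10500), a NAC factor known to activate proteasome genes, had 91.5, 157 and 123 CPM against 29.3 to 40.9 CPM (1.89 ± 0.16). Other subunits rose less, such as PBD1 (AT3G22630) with 46.3, 58.6 and 47.3 CPM against 21 to 34 CPM (0.86 ± 0.15) and PAA2 (AT2G05840) with 92.4, 109 and 96.5 CPM against 58.1 to 73.9 CPM (0.61 ± 0.12). The summed level of the list was 3994, 4577 and 3983 CPM in Zeocin libraries and 2964 to 3584 CPM in mock libraries, so the groups did not overlap. The count of 16 was 8 without Zeocin replicate 2 and 11 to 16 without each other library.

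**Figure D4:**
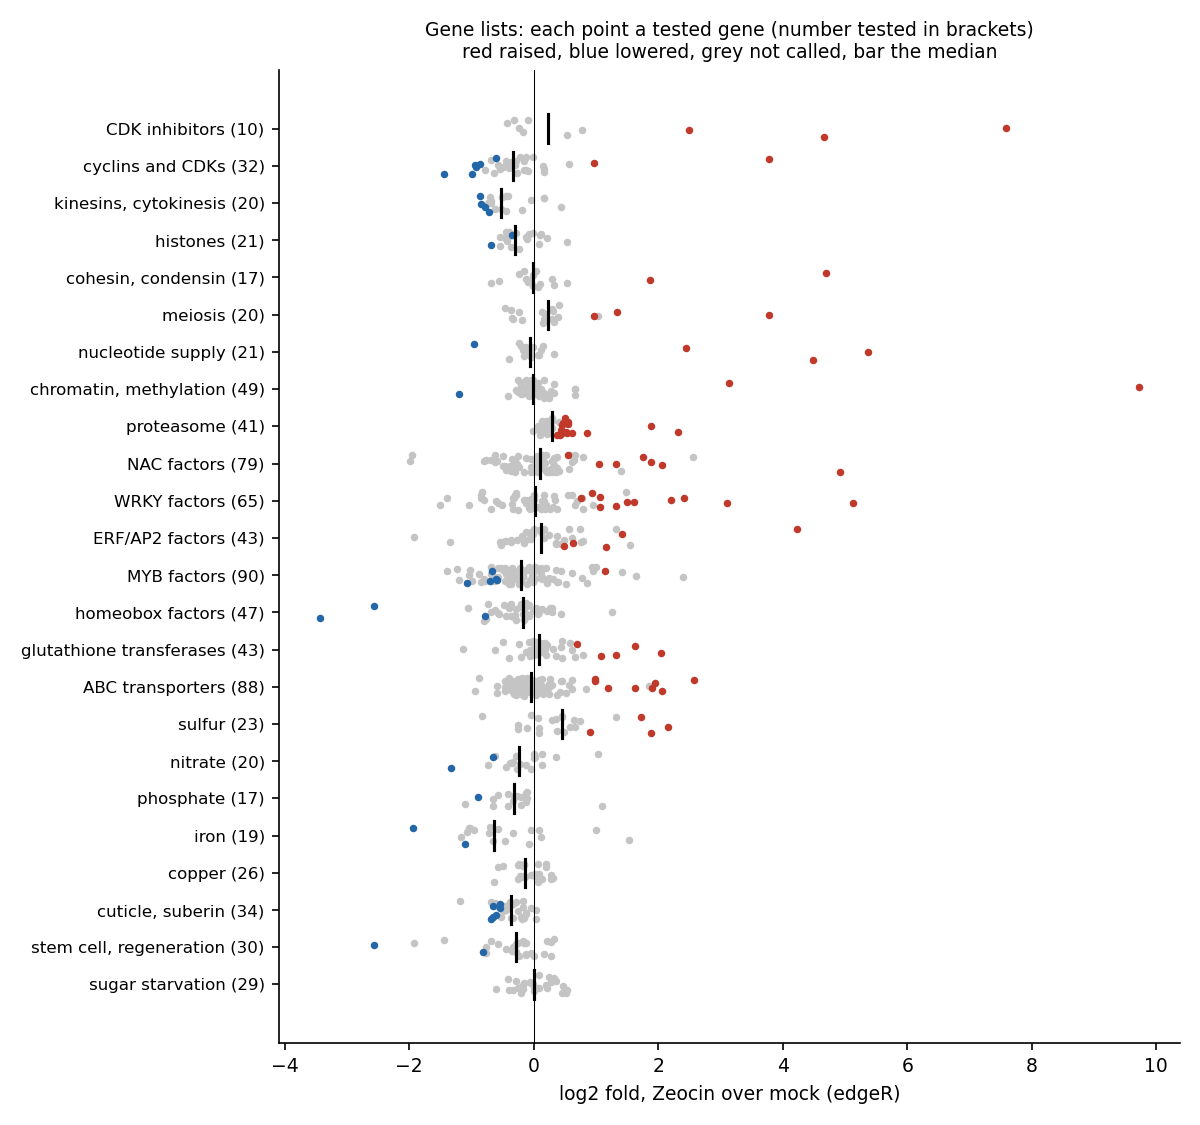
Log2 fold of Zeocin over mock (horizontal axis) of each tested gene of 24 gene lists, red raised, blue lowered, grey not called, with the list's median as a black bar and the number tested in brackets. The CDK inhibitors and nucleotide genes hold a few large rises, 40 of 41 proteasome genes lie right of 0 and 32 of 34 cuticle genes left of it, most of them grey.

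Transcription factor families differed in the number of called members, which stand against 4.07% raised and 1.18% lowered over all genes. WRKY factors, which act in defence and wounding, rose in 11 of 65 tested and fell in 0. WRKY50 (AT5G26170) had 19.5, 26.9 and 21.6 CPM in Zeocin libraries against 3.51, 2.39, 2.31 and 2.34 CPM in mock libraries (3.1 ± 0.21, adjusted p = 2.4e-12). WRKY25 (AT2G30250), known from heat and salt stress, had 125, 205 and 208 CPM against 27.6 to 43.5 CPM (2.41 ± 0.21) and WRKY48 (AT5G49520), a regulator of defence, 32, 56.6 and 41.4 CPM against 7.04 to 13.1 CPM (2.2 ± 0.25). WRKY41 (AT4G11070), with 0.353, 0.415 and 0.174 CPM in Zeocin libraries and 0 in all mock libraries, was also called and lost its call in 5 of the 7 fits. The family's count was 6 without Zeocin replicate 2 or mock replicate 1 and 7 without mock replicate 2 or 3.

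NAC factors rose in 7 of 79 and fell in 0 (4.07% raised and 1.18% lowered over all genes). NAC103 (AT5G64060), a factor with roles in protein stress and the damage response, had 43.4, 67.9 and 64.7 CPM in Zeocin libraries against 1.63, 1.14, 1.89 and 3.06 CPM in mock libraries (4.92 ± 0.24, adjusted p = 7e-16). NAC048 (AT3G04420) had 12.1, 16 and 21.4 CPM against 2.37 to 4.98 CPM (2.06 ± 0.31), and ANAC087 (AT5G18270), a regulator of programmed cell death in the root cap, 33.7, 46 and 41.5 CPM against 10.6 to 13.5 CPM (1.75 ± 0.17). DREB19 (AT2G38340) led the 5 rises among 43 genes matched by name as ERF and AP2 factors (NAP57, 1 of them, is no such factor and was not called), with 7.89, 21.2 and 20.4 CPM after Zeocin and 0.251 to 2.13 CPM in mock (4.23 ± 0.52, adjusted p = 1.4e-06). That count of 5 was 2 without Zeocin replicate 2 or 3 or without mock replicate 1 or 3, and 3 without mock replicate 2.

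MYB factors had 5 falls and 1 rise among 90 tested (median -0.20), against 1.18% lowered and 4.07% raised over all genes. No library could be left out without moving the count of falls: it was 6 without Zeocin replicate 1 and otherwise 0 to 2. Homeobox factors fell in 3 of 47. WOX11 (AT3G03660), a regulator of root formation from cut tissue, was at 0.118 to 0.177 CPM in Zeocin libraries and 0.251 to 1.62 CPM in mock libraries (-2.57 ± 0.67, adjusted p = 0.026), and HB21 (AT2G18550), which acts in bud dormancy, at 0.118, 0.0592 and 0 CPM against 0.591 to 0.877 CPM (adjusted p = 0.015). Both are near the lower limit of counting. WOX11 lost its call in 5 of the 7 fits, and HB21 in 2, those without Zeocin replicate 2 or 3. The 3 homeobox falls were 0 without Zeocin replicate 2 or 3.

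Counts of detoxification enzymes and transporters stand against 4.07% raised and 1.18% lowered over all genes. Of 43 glutathione transferases 5 rose and 0 fell, with 2 rises without Zeocin replicate 2. GSTU25 (AT1G17180) had 66, 171 and 63 CPM in Zeocin libraries against 17.5, 10.4, 40.1 and 28.6 CPM in mock libraries (2.05 ± 0.47, adjusted p = 0.0074, and 0.13 without Zeocin replicate 2). ABC transporters rose in 8 of 88, led by ABCB13 (AT1G27940), of a subfamily of auxin carriers, with 23.2, 32.9 and 39.6 CPM against 3.89 to 7.13 CPM (2.58 ± 0.26). Cytochromes P450 rose in 8 and fell in 5 of 171, and the share of rises is near that of all genes. The rises were 5 without Zeocin replicate 2 or 3 or mock replicate 1 or 4, and the falls 9 without Zeocin replicate 1, 2 without mock replicate 4 and 0 without Zeocin replicate 3. CYP96A11 (AT4G39500) had 2.41, 3.91 and 3.89 CPM in Zeocin libraries against 0 to 0.239 CPM in mock libraries (5.10 ± 0.66). Cysteine-rich receptor kinases had 3 rises in 35 (median 0.55), which became 0 without Zeocin replicate 2 and 1 without mock replicate 3.

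The 5 largest gains in mean CPM were those of TSO2, XRI1 and TK1a, above, of ERD14 (AT1G76180), a dehydrin, and CP1 (AT5G49480), a calcium-binding protein. ERD14 had 880, 1250 and 1030 CPM in Zeocin libraries against 269, 263, 236 and 328 CPM in mock libraries (1.94 ± 0.22, adjusted p = 2.1e-07). CP1 had 914, 1300 and 1050 CPM against 208 to 373 CPM (1.85 ± 0.21). The groups did not overlap in either gene. The largest losses in CPM included PIP2A (AT3G53420), a water channel (492 ± 94.2 CPM after Zeocin and 688 ± 57.0 CPM in mock, SD, n = 3 and 4), GLT1 (AT5G53460), a glutamate synthase (301 ± 38.0 and 479 ± 70.7 CPM), and FRO2. PIP2A (adjusted p = 0.045) lost its call in 5 of the 7 fits and GLT1 (adjusted p = 0.013) in 2, those without Zeocin replicate 1 and mock replicate 1.

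Both called nitrate genes kept their fall without each library. NRT1.5 (AT1G32450) loads nitrate into the xylem. It had 33.8, 41.7 and 52.3 CPM in Zeocin libraries against 107, 115, 88.7 and 118 CPM in mock libraries (-1.33 ± 0.19, adjusted p = 1.4e-05, at most 0.00036 without a library). TGA1 (AT5G65210), a bZIP factor of the nitrate response, fell to 40.4, 52.5 and 42.1 CPM in Zeocin libraries, against 68.3 to 74.6 CPM in mock libraries (-0.66 ± 0.13, adjusted p = 0.0015). Of the 20 nitrate genes tested 2 fell and 0 rose (1.18% lowered and 4.07% raised over all genes). Phosphate genes had 1 fall in 17, the exporter PHO1 (AT3G23430, -0.90 ± 0.25, adjusted p = 0.028), lost in 5 of the 7 fits.

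FRO2 (AT1G01580), the ferric reductase of the root surface, had 30.1, 58 and 19.3 CPM in Zeocin libraries against 105, 53.8, 124 and 267 CPM in mock libraries (-1.94 ± 0.55, adjusted p = 0.036). The groups overlapped, and the call was lost in 4 of the 7 fits, with adjusted p up to 0.21 without Zeocin replicate 3. NAS1 (AT5G04950), which makes the iron chelator nicotianamine, was the other fall among 19 iron genes tested (-1.11 ± 0.33, adjusted p = 0.047, lost in 4 fits). Over all genes 1.18% were lowered. The median of the list was -0.65, and 10 further iron genes were left out for unclear decimals. The count of 2 was 0 without Zeocin replicate 3 or mock replicate 3 or 4, and 1 without Zeocin replicate 1 or 2.

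Of 23 sulfur genes tested 4 rose and 0 fell (median 0.46), all 4 lowest among Zeocin libraries in replicate 2. Over all genes 4.07% were raised. AT5G26220, a glutathione-degrading cyclotransferase (GGCT2;1), had 19.6, 6.16 and 11.4 CPM in Zeocin libraries against 3.19, 3.23, 5.56 and 3 CPM in mock libraries (1.72 ± 0.34, adjusted p = 0.0013). The vacuolar sulfate exporter SULTR4;1 (AT5G13550) had 47.5, 40 and 55.5 CPM against 18.6 to 29.7 CPM (0.91 ± 0.19, adjusted p = 0.0016). These 2 calls held without each library, and the other 2, ATSDI1 and BGLU28, did not. The count was 2 without Zeocin replicate 1 or 3. In Δlinda the list's median was -0.26.

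Of 34 genes of cuticle and suberin tested 6 fell, 0 rose and 28 were not called (1.18% lowered over all genes). A negative log2 fold was found in 32 (median -0.37; -0.03 in Δlinda). CER3 (AT5G57800), needed for alkanes of the wax, had 61.1, 72 and 53.7 CPM in Zeocin libraries against 102, 85.1, 108 and 96.3 CPM in mock libraries (-0.65 ± 0.12, adjusted p = 0.00046), a call that held without each library. CER2 (AT4G24510), which lengthens wax chains, had 26, 22 and 15.6 CPM against 25.9 to 36.9 CPM (-0.60 ± 0.14, adjusted p = 0.0066, and 0.11 without Zeocin replicate 3), and GPAT4 (AT1G01610), an acyltransferase of cutin, 35, 26.4 and 21.3 CPM against 37.1 to 47.6 CPM (-0.68 ± 0.17, adjusted p = 0.011, lost without Zeocin replicate 2 or 3). The count was 10 without Zeocin replicate 1, 1 without Zeocin replicate 3 and 3 without mock replicate 1.

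The 15 largest falls that held without each library had log2 folds of -2.48 to -1.07, and several are of genes of unknown role. AT3G48490, which encodes an uncharacterized protein, had the largest, with 0.647, 0.237 and 0 CPM in Zeocin libraries against 0.689, 2.15, 2.37 and 1.5 CPM in mock libraries (-2.48 ± 0.56, adjusted p = 0.005, at most 0.045 without a library). Its levels are near the lower limit of counting, and Zeocin replicate 1 lay just below mock replicate 1. AT2G41480, a peroxidase gene, had 3.24, 3.43 and 1.8 CPM in Zeocin libraries against 8.9 to 10.6 CPM in mock libraries (-1.76 ± 0.33, adjusted p = 0.00055). RVE1 (AT5G17300), a clock-linked MYB-type factor, fell to 10.6, 16.7 and 18.4 CPM in Zeocin libraries, against 26.7 to 43.3 CPM in mock libraries (-1.07 ± 0.18, adjusted p = 1e-04). MRLK (AT3G56100), a receptor kinase of meristems, had 2.77, 2.66 and 1.63 CPM against 3.36 to 7.48 CPM (-1.34 ± 0.29), and DOT3 (AT5G10250), which acts in vein patterning, 2.06, 2.78 and 2.21 CPM against 4.91 to 5.64 CPM (-1.20 ± 0.24). Mock replicate 4 was the lowest mock library for MRLK, AT5G56120, AT3G52110, AT4G17000, AT3G03130 and AT3G51280, but not for the others of the 15 falls.

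Beside the leaf, root and guard cell markers, lists without a member called by edgeR were those of copper (26 tested), sugar starvation (29), RBOH oxidases (5) and LBD factors (20). At an unadjusted p under 0.05 they had 0, 1, 0 and 0 rises and 1, 1, 0 and 2 falls, and DESeq2 called 0 in each. Among 29 wall-modifying XTH genes there were 4 rises and 1 fall (4.07% raised and 1.18% lowered over all genes). XTR6 (AT4G25810) had 27.1, 123 and 44.5 CPM in Zeocin libraries against 8.46 to 21.2 CPM in mock libraries (2.16 ± 0.56, adjusted p = 0.02, lost in 3 fits, with 0.31 without Zeocin replicate 2). The 4 rises were 2 without Zeocin replicate 2 or mock replicate 1, and the fall, XTH21, was lost without Zeocin replicate 2 or 3 or mock replicate 1 or 3. Genes of gibberellin and brassinosteroid rose in 2 and fell in 1 of 33: EXO (AT4G08950), a brassinosteroid-responsive growth gene, had 83.9, 197 and 120 CPM against 36.8 to 53.3 CPM (1.56 ± 0.27), and GA3OX1 (AT1G15550), which makes active gibberellin, 4.36, 3.85 and 5.58 CPM against 7.97 to 12 CPM (-1.13 ± 0.30, adjusted p = 0.017, lost in 3 fits). In the list of developmental cell death 1 of 17 rose, the protease CEP2 (AT3G48340, 1.46 ± 0.27).

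Several further families had a single rise and no fall (4.07% raised and 1.18% lowered over all genes). PUB26 (AT1G49780), a ubiquitin ligase, was the rise among 22 plant U-box genes, at 14.1, 14.6 and 15.6 CPM in Zeocin libraries against 7.06 to 7.98 CPM in mock libraries (0.98 ± 0.16, adjusted p = 8.9e-05). HSFA8 (AT1G67970), a heat shock factor, was that of 15 tested (1.15 ± 0.25), UGT71C5 (AT1G07240), a glucosyltransferase, that of 49 (0.63 ± 0.12) and EXPA12 (AT3G15370), a wall-loosening expansin, that of 20 (4.37 ± 0.85). These 4 calls held without each library. EXPA12 was low and uneven, with 1.47, 4.09 and 0.581 CPM in Zeocin libraries against 0 to 0.237 CPM in mock libraries. Its adjusted p was 0.038 without Zeocin replicate 2. SAUR genes, known from auxin responses, rose in 2 and fell in 2 of 61, and 1 call held without each library. That was SAUR21 (AT5G01830), which came into the list by its symbol and which RefSeq annotates as an ARM repeat protein, with 16.9, 19.6 and 20 CPM in Zeocin libraries against 6.16 to 9.41 CPM in mock libraries (1.33 ± 0.17). Of 29 genes matched by name as aquaporins PIP2A, above, fell and 0 rose (BRX and CIPK15 among them are no aquaporins and were not called), and the count of 1 was 0 to 4 without a library. Stem cell and regeneration genes fell in 2 of 30, WOX11, above, and BHLH32 (AT3G25710, -0.81 ± 0.18, adjusted p = 0.0047, at most 0.063 without a library).

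By kind of gene, 843 of 20275 protein-coding genes were raised (4.16%) and 247 lowered (1.22%), near the shares over all genes (4.07% and 1.18%). Long noncoding RNAs had 9 rises (2.48%) and 1 fall (0.275%) in 363. Transcribed pseudogenes had 10 (6.9%) and 2 (1.38%) in 145, and identifiers of transposable elements 3 (1.86%) and 0 in 161.

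The Δlinda seedlings received the same drug with their own mock libraries. There 510 genes (2.38%) were raised and 92 (0.429%) lowered. Of the 872 genes raised in Col-0, 855 had a positive log2 fold in Δlinda, 448 were called and 0 were called in the opposite direction, and the median was 0.794 there against 1.15 in Col-0. Of the 252 lowered genes 222 had a negative fold in Δlinda and 40 were called, with a median of -0.338. Since the genes were picked by their call in Col-0, the 2 medians are given side by side and not compared. The test of the difference itself called 0 genes (0.0%) by edgeR, with 777 at an unadjusted p under 0.05, and 2 by DESeq2. Restored decimals were placed with a level shared by both genotypes, so this count of 0 is not free of that choice.

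UV-C forms mainly pyrimidine dimers. Its seedlings were harvested 3 h after irradiation and have normal-light controls of their own. In Col-0 it raised 7487 (34.9%) and lowered 7226 (33.7%) of the tested genes. Of the 872 genes raised by Zeocin 555 were also raised by UV-C, 127 were lowered and 190 were not called. The difference between the 2 responses was called above in 5961 (27.8%) and below in 5905 (27.5%) of all genes, and among the 872 raised genes above in 307 and below in 327. Of the 252 lowered genes 173 were lowered and 26 raised by UV-C. Some raised genes thus had a larger fold after Zeocin and others after UV-C. Each treatment was given at a single dose and the controls differ, and the part these have in the differences was not tested.

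XRI1, TK1a and TSO2 were among the genes with a larger response to Zeocin. Their log2 folds after UV-C were 0.99 ± 0.19, 1.63 ± 0.19 and 0.45 ± 0.17, and the differences, Zeocin minus UV-C, 4.78 ± 0.27, 3.74 ± 0.27 and 4.03 ± 0.26. AT5G48020, an oxygenase gene, had 304, 371 and 412 CPM after Zeocin and 30.5 to 33.5 CPM in mock (3.53 ± 0.13), and 0.02 ± 0.12 after UV-C (difference 3.51 ± 0.17, adjusted p = 1.3e-15). AT5G11460, of a protein family with a DUF581 domain, had a log2 fold of 3.73 ± 0.19 after Zeocin and of -1.52 ± 0.19 after UV-C (difference 5.26 ± 0.26, adjusted p = 1.9e-15). In the other direction NAC053, WRKY25 and GSTU25 had 3.86 ± 0.17, 4.53 ± 0.23 and 8.93 ± 0.94 after UV-C, with differences of -1.97 ± 0.23, -2.12 ± 0.30 and -6.88 ± 1.26.

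**Figure D5:**
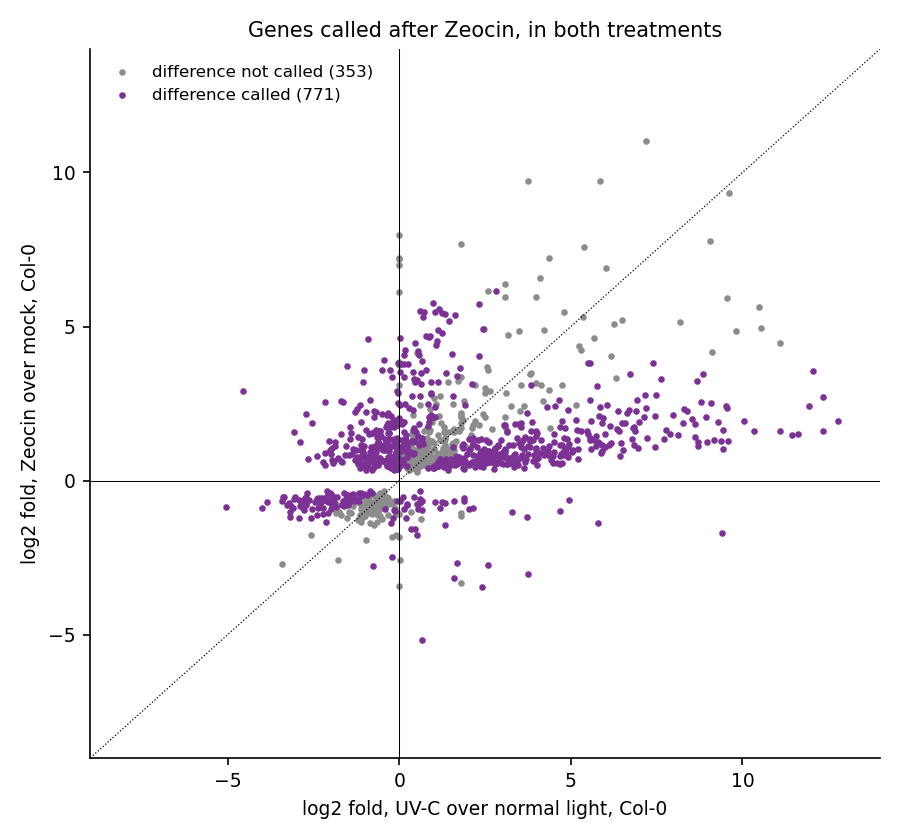
Log2 fold of Zeocin over mock (vertical axis) against that of UV-C over normal light (horizontal axis) in Col-0 for the 1124 genes called after Zeocin, violet where the difference of the 2 responses was called and grey where it was not, with the dotted line where both are equal. Violet points spread on both sides of the line, upwards to genes such as XRI1 and to the right along large folds after UV-C.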

How the data were processed

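RNA was isolated with a plant RNA kit and libraries were made by random fragmentation and adapter ligation, per the labels' protocols. The submitters' processing notes name Trimmomatic 0.38.0, FastQC 0.72 and Salmon 0.14.1.2. The transcript set and genome build are not given in the sources used here, nor is a strand setting, so overlapping, antisense and near-identical genes are uncertain. The authors deposited estimated counts for 68575 identifiers in 30 columns, 0 of them unmapped to a sample. Values that are not whole have lost their decimal mark.

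The mark was restored per gene from its values in replicates and in the other groups, with 0 to 3 decimals and a posterior of at least 0.95. In the 7 libraries 14.65 to 15.6% of entries above 0 got decimals, and 2135 identifiers stayed unclear and were left out (835 of 20885 with a mean of 10 or more, 4.0%). The placement was revised several times with calls and known induced genes in view. It gives both genotypes of a condition 1 level, which can draw genotypes together. It also ties the levels of mock and Zeocin to each other, which can draw these 2 conditions together. With decimals placed without the groups 634 genes were raised and 200 lowered. On simulated data 6 of 5879 kept genes (0.1021%) had a wrong entry, and 2 of 578 (0.346%) with a 10-fold shift.

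After rounding, the restored values went into edgeR 4.0.16 (R 4.3.3): quasi-likelihood test, all 30 libraries, 1 coefficient per group, TMM, filterByExpr with counts of 10 and 15, and Benjamini-Hochberg adjustment at 0.05. SE is the log2 fold over the root of F. On simulated data for Zeocin against mock in Col-0, with 21264 genes, 80 of 100 genes changed by a log2 of 1 and 97 of 100 changed by 2 were recovered, with 7 false calls. The changed genes had an expected mock count of at least 10. Counts were drawn with the fit's dispersion and without libraries that stand apart, so these rates may be better than in the real libraries. DESeq2 1.42.0 and other scalings, filters, placements and libraries were alternatives. Tables used numpy 2.4.6, pandas 2.3.3 and scipy 1.17.1. Restored totals of the 7 libraries were 13885841 to 14949280. Gene names and upstream sequence come from RefSeq TAIR10.1, matched by locus for 21184 of 21444 genes tested.

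The members and lists were chosen with earlier results of these data known. Named genes are the 15 largest rises and 15 largest falls with a mean of at least 1 CPM, groups that do not overlap and calls without each library; up to 4 called members of each list; the 5 largest rises and falls in CPM; 10 called transcription factors; and the 5 surest differences from UV-C. Nothing in the labels says that replicates were separate cultures, so p-values measure only the spread between these samples. Intervals and floors (3 counts) cover counting error only.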

Additional observations from a re-analysis of the deposited data

Results flagged for a closer look

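In 7 of 104 groups of mock libraries examined, 1 library lay far from the other 3 by Dixon's criterion, which chance meets in about 1 in 20 groups. Groups of 3 Zeocin libraries were not examined. Mock replicate 3 was high for AT5G48020 (33.5 CPM), AT5G26220 (5.56 CPM) and BHLH32 (15.7 CPM). Mock replicate 1 was high for WRKY50 (3.51 CPM), and mock replicate 4 for SEOR1 (36.9 CPM) and AT5G43180 (21.2 CPM). Mock replicate 4 was low for AT3G03130 (8.33 CPM).

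The Zeocin response differed from the UV-C response, by edgeR's quasi-likelihood test of the difference with Benjamini-Hochberg adjustment, by a log2 of 5.26 for AT5G11460 (adjusted p = 1.9e-15) and 3.51 for AT5G48020 (1.3e-15). It was below the UV-C response for AT2G32140, a gene of a transmembrane receptor, by -7.46 (1.5e-16), for AT3G55470, a lipid-binding domain protein gene, by -4.16 (8.9e-15) and for AT3G50910 by -3.21 (3.9e-15). All 5 genes were also raised by Zeocin against mock, AT3G55470 (0.53 ± 0.16) and AT3G50910 (0.42 ± 0.12) with calls lost in 5 of the 7 fits without a library.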

How the results depend on the processing

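With the 7 libraries alone 514 genes were raised and 89 lowered, and with the replicate number as a block 229 and 4 (1236 and 872 at an unadjusted p under 0.05). The numbers do not pair the samples, since the correlations of the deviations of same-numbered libraries were 0.01, -0.19 and -0.36. Against a log2 fold of 1 as null 209 were raised and 0 lowered (452 and 60 unadjusted; not run in DESeq2). DESeq2 gave 398 lowered genes. Without each of the 7 libraries the raised genes were 543 to 1038 and the lowered 83 to 466. The raised share of calls was 77.4% without organelle genes, 76.6% with RLE size factors and 80.4% with total counts. No rRNA gene was among the identifiers with clear decimals. Chloroplast genes held 0.06375 to 0.2158% of the clear counts in the 7 libraries, so leaving organelle genes out could change little. The difference between Col-0 and Δlinda was called in 2 genes by DESeq2 and in 9 with looser decimals placed by group and genotype, both added after seeing the data, and in 0 to 1 without a library (1 without Zeocin Col-0 replicate 2). Without restored decimals 668 were raised and 208 lowered, and with decimals placed without the groups 634 and 200. Scaling moved the median of all genes by at most 0.012. None of the 130 named genes reversed in any setting that tested it, but some settings tested only a part of them. With decimals placed without the groups 80 kept their call and 6 lost it, and without restored decimals 103 kept it. Calls of 38 and 37 of the 130 were lost without Zeocin replicates 2 and 3, 86 against a log2 fold of 1, 76 with the block, 45 with the 7 libraries alone and 3 with DESeq2. Depth limits genes near the floor of 3 counts.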
